A study of Mus musculus with 6 samples.

Results

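The miR-199 and miR-214 assays of the TaqMan array cards are described here in the whole aorta of Apoe-/- mice. They were taken from the names of the mouse assays in the deposited table: every name that begins with miR-199 or equals miR-214, star strands left out. Of 596 mouse miRNA assays, 4 met this rule, namely miR-199a-3p, miR-199a-5p, miR-199b and miR-214. No star strand of these hairpins was analysed here. The EC-Dicerflox group consisted of 3 mice of the genotype VE-Cadherin-CreERT2 Dicer1flox/flox Apoe-/-, and the EC-DicerWT group of 3 littermates of the genotype VE-Cadherin-CreERT2 Dicer1WT/WT Apoe-/-. Both groups carried the Cre transgene, lacked apolipoprotein E, received tamoxifen (2 mg per 20 g body weight) on 5 days, and were put on a high-fat diet at an age of 6 to 8 weeks, which was given for 4 weeks. The Cre recombinase is driven by the endothelial VE-cadherin promoter, whereas the RNA came from the entire vessel wall. Dicer1 mRNA is not measured by these cards, so the deletion could not be checked in these samples. The labels give the mice as male and the paper's methods as female, and no result uses the sex.

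Mature miRNAs are made from hairpin transcripts. Drosha trims the hairpin from the primary transcript, and Dicer removes its loop, which leaves a duplex of the 5p and the 3p arm. An Argonaute protein then keeps an arm of the duplex and is guided by the seed, the bases 2 to 8 from the 5′ end. MiR-199a-2 and miR-214 are made from Dnm3os, a long noncoding RNA transcribed from the strand opposite to Dnm3 (dynamin 3). Dnm3os is known from mesenchyme, fibroblasts and the developing skeleton, and its miRNAs are studied in fibrosis and in the injured heart. MiR-199a-5p is known as a repressor of caveolin-1, miR-199a-3p as an inducer of cardiomyocyte proliferation, and miR-214 as a repressor of Ezh2 and of the sodium-calcium exchanger Slc8a1.

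The mature sequences are shown because they define which hairpins an assay can read. They come from RefSeq (GRCm38.p6). By name, 2 of the 4 assays, miR-199a-3p and miR-199a-5p, matched a mature miRNA. The seed is printed in capitals.
miR-199a-3p: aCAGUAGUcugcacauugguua
miR-199b-3p: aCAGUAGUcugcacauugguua
miR-214-3p: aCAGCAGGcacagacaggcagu
miR-199a-5p: cCCAGUGUucagacuaccuguuc
miR-214-5p: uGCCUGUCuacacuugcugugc
The name miR-214 carries no arm. In the naming of the period the plain name stood for the main arm, which for this hairpin is miR-214-3p. The name miR-199b carries no arm either, and the arm it reads is not given in the sources used here. MiR-199b-3p is identical to miR-199a-3p, so this sequence occurs in 3 hairpins, whereas miR-199a-5p occurs in 2 hairpins and miR-214-3p in 1. The first 4 bases of miR-199a-3p and miR-214-3p are the same. Counted from the 5′ end of miR-199a-3p, their seeds differ by U5C and U8G. The only other listed miRNA with the seed of miR-214-3p was miR-761, which was at the detection limit in 5 of 6 samples and at a CT of 39.5 in EC-DicerWT replicate 2.

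The 3 genes of the miR-199 family lie in dynamin genes. Mir199a-2 (chr1:162217814-162217923, plus strand) and Mir214 (chr1:162223368-162223477, plus strand) lie within both Dnm3 and Dnm3os and are 5444 bases apart. Mir199b (chr2:32318460-32318569, plus strand) lies within Dnm1, and Mir199a-1 (chr9:21496495-21496564, minus strand) within Dnm2. Below, the hairpins of the Dnm3os transcript are printed with the annotated mature arms in capitals, which shows that an assay for either arm of miR-199a reads a product of the same hairpin.
Mir199a-2: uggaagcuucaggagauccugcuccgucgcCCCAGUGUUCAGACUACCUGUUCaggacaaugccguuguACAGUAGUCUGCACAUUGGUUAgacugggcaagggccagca
Mir214: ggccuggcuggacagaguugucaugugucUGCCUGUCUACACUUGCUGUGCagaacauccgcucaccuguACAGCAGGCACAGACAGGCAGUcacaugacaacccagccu

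The authors deposited CT values, the PCR cycle at which the fluorescence of an assay crosses a threshold. A higher CT means less RNA, and a CT of 40 is the detection limit. The whole-aorta identity was checked with marker miRNAs: miR-145 and miR-143 of smooth muscle had mean CTs of 14.8 and 17.4, and miR-126-3p of endothelium had a mean CT of 18.2. Markers of leukocytes (4 of 4 listed), erythrocytes (2 of 2), striated muscle (3 of 4), epithelium (5 of 6) and neurons (2 of 3) were also under the limit in all samples, the earliest being miR-133a of striated muscle with a mean CT of 19.2. Whole tissue was measured, so fewer cells of a type and less RNA per cell cannot be told apart. EC-Dicerflox replicate 3 stood apart, with 375 miRNAs under the limit against 402 to 415 in the other samples. Over the 350 miRNAs under the limit in all samples, the mean CT was 28.05 in this sample, 27.28 in EC-DicerWT replicate 3 and 26.04 to 26.54 in the others. The fold changes of the 4 assays are therefore given without replicate 3 as well.

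All 4 assays were under the limit in all 6 samples, and miR-199a-3p was the earliest to appear. MiR-199a-3p had CTs of 20.70, 20.52 and 21.52 in EC-Dicerflox replicates 1, 2 and 3 and of 20.70, 20.98 and 21.38 in EC-DicerWT replicates 1, 2 and 3. Its values were highest in replicate 3 of either group, and the groups overlapped. MiR-214 had CTs of 21.62, 20.89 and 23.96 in EC-Dicerflox and of 21.99, 21.86 and 23.76 in EC-DicerWT mice. Again both samples numbered 3 were the latest, and the groups overlapped. MiR-199a-5p had CTs of 24.76, 24.22 and 27.78 in EC-Dicerflox and of 23.31, 24.58 and 26.55 in EC-DicerWT mice. The earliest sample was EC-DicerWT replicate 1 and the latest EC-Dicerflox replicate 3. MiR-199b had CTs of 25.80, 25.59 and 27.76 in EC-Dicerflox and of 26.48, 25.98 and 27.56 in EC-DicerWT mice, which overlapped too.

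Ordered by mean CT over the 6 samples, miR-199a-3p (21.0 ± 0.405, SD, n = 6) came before miR-214 (22.3 ± 1.24), miR-199a-5p (25.2 ± 1.65) and miR-199b (26.5 ± 0.925). Among the 350 miRNAs under the limit in all samples, these are ranks 33, 62, 130 and 158 from the earliest. Assays differ in efficiency and pre-amplification, so that this is an order of assays and not of molecule numbers. MiR-199a-3p preceded miR-214 in 6 of 6 samples, by 0.365 to 2.44 cycles. MiR-214 also preceded miR-199a-5p in 6 of 6 samples, the CT of miR-214 minus that of miR-199a-5p lying between -3.82 and -1.32 cycles. The neighbours miR-199a-5p and miR-199b were not separated in every sample: miR-199b minus miR-199a-5p was -0.020 cycles in EC-Dicerflox replicate 3 and 1.00 to 3.16 cycles in the others.

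**Figure D1:**
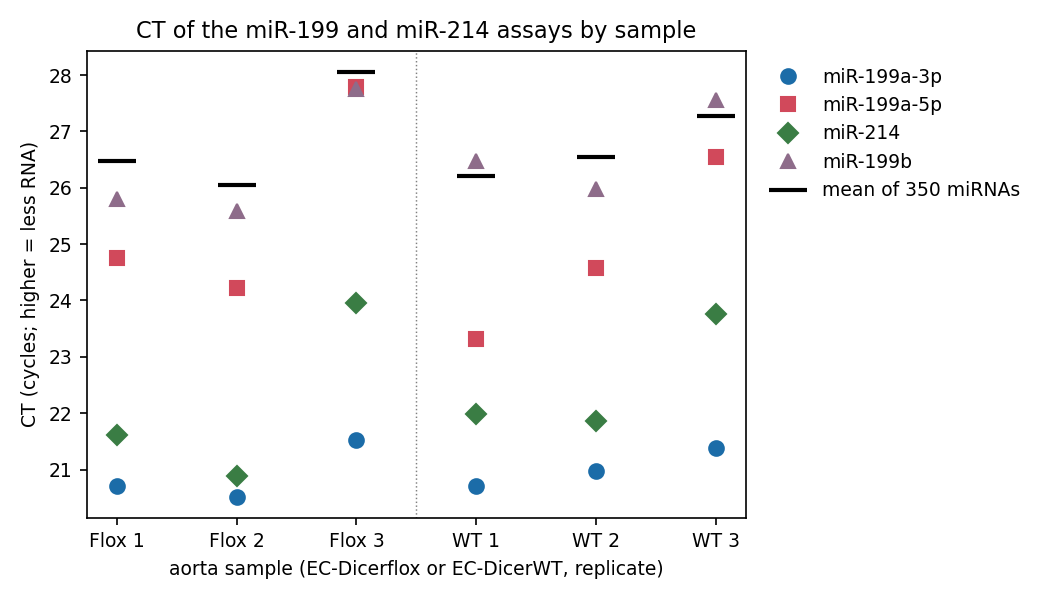
CT in cycles (y axis, higher means less RNA) of miR-199a-3p, miR-199a-5p, miR-214 and miR-199b in each aorta sample (x axis, Flox for EC-Dicerflox and WT for EC-DicerWT, numbered by replicate), with a black bar for the mean CT of the 350 miRNAs under the limit in all samples. Both samples numbered 3 are late in all 4 assays, most of all miR-199a-5p at 27.78 in EC-Dicerflox replicate 3, while miR-199a-3p stays between 20.52 and 21.52.

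The assays followed the general shift in CT between samples to very different degrees. The mean CT of the 350 miRNAs ranged over 2.01 cycles between samples. Over the same samples, miR-199a-3p ranged over 1.00 cycle, miR-199b over 2.17, miR-214 over 3.08 and miR-199a-5p over 4.47 cycles, where the median range of the 350 miRNAs was 2.21 cycles. The SD of miR-199a-3p was the 9th smallest of 350, and that of miR-199a-5p ranked 307th from the smallest. For each added cycle of the mean CT, miR-199a-3p rose by 0.511 cycles, miR-199b by 1.10, miR-214 by 1.52 and miR-199a-5p by 2.09 cycles, against a median slope of 0.930. Early assays had smaller slopes: the median was 0.839 for the 56 miRNAs with a mean CT under 22 and 1.06 for the 89 miRNAs with a mean CT of 30 or later.

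To compare genotypes, CT values were normalized within each sample to the 4 wells of U6 and snoRNA135 (delta CT), and minus the delta CT is given as the normalized level in log2 units, where a higher value means more RNA. The normalized level of miR-199a-3p was -1.81, -1.82 and -1.30 in EC-Dicerflox and -1.89, -2.03 and -1.77 in EC-DicerWT mice. Only EC-Dicerflox replicate 3 lay above all EC-DicerWT samples. Its log2 fold change was 0.25 (standard error 0.27, 95% CI -0.42 to 0.93, limma adjusted p = 0.923; exact two-sided permutation p = 0.3). It was 0.083 without EC-Dicerflox replicate 3 and 0.15 without replicate 3 of both groups. Between samples numbered alike it differed by 0.079, 0.21 and 0.47 log2 units for numbers 1, 2 and 3, higher in EC-Dicerflox in 3 of 3 pairs. The labels do not say what a replicate number marks, so such pairs, here and below, are only a description.

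The normalized level of miR-214 was -2.73, -2.18 and -3.74 in EC-Dicerflox and -3.18, -2.92 and -4.15 in EC-DicerWT mice. In each group the sample numbered 3 was the lowest, and the groups overlapped. The log2 fold change of miR-214 was 0.53 (standard error 0.56, 95% CI -0.87 to 1.94, limma adjusted p = 0.923; exact two-sided permutation p = 0.4). It was 0.96 without EC-Dicerflox replicate 3, 0.18 without EC-Dicerflox replicate 2 and 0.17 without EC-DicerWT replicate 3, but 0.59 when replicate 3 of both groups was left out. Samples of the same replicate number differed by 0.45, 0.73 and 0.42 log2 units for numbers 1, 2 and 3, so that miR-214 was higher in EC-Dicerflox in 3 of 3 such pairs.

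The normalized level of miR-199a-5p was -5.87, -5.51 and -7.56 in EC-Dicerflox and -4.50, -5.64 and -6.95 in EC-DicerWT mice. The highest value belonged to EC-DicerWT replicate 1 and the lowest to EC-Dicerflox replicate 3. The log2 fold change was -0.62 (standard error 0.85, 95% CI -2.76 to 1.53, limma adjusted p = 0.923; exact two-sided permutation p = 0.6). These 2 samples set its size, since it was 0.0025 without EC-Dicerflox replicate 3 and -0.022 without EC-DicerWT replicate 1. Without EC-Dicerflox replicate 2 it was -1.02 and without EC-DicerWT replicate 3 it was -1.25, and without replicate 3 of both groups -0.62. For numbers 1, 2 and 3, EC-Dicerflox minus EC-DicerWT was -1.37, 0.12 and -0.61 log2 units, higher in EC-Dicerflox in 1 of 3 pairs.

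The normalized level of miR-199b was -6.91, -6.89 and -7.54 in EC-Dicerflox and -7.67, -7.04 and -7.95 in EC-DicerWT mice. Within pairs of the same number, EC-Dicerflox was higher in 3 of 3, but the groups overlapped. Its log2 fold change was 0.44 (standard error 0.37, 95% CI -0.48 to 1.36, limma adjusted p = 0.923; exact two-sided permutation p = 0.2). When samples were left out singly, it ranged from 0.24 without EC-DicerWT replicate 3 to 0.70 without EC-DicerWT replicate 2, with 0.65 without EC-Dicerflox replicate 3. Without replicate 3 of both groups it was 0.45.

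**Figure D2:**
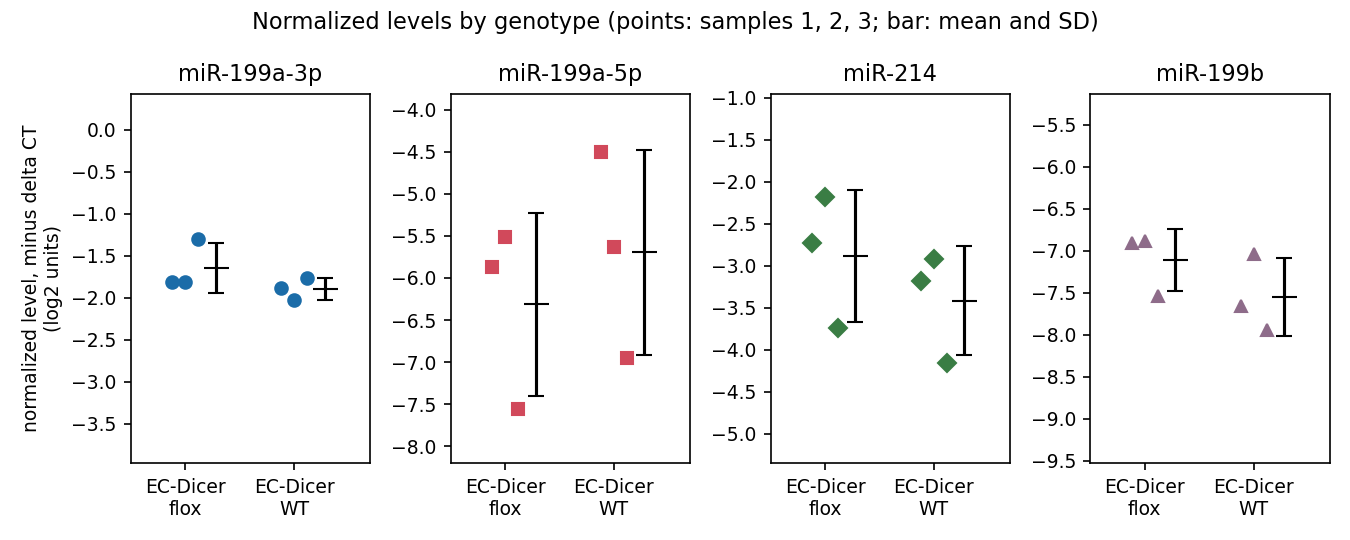
Normalized level (y axis, minus delta CT in log2 units, relative to U6 and snoRNA135) of each of the 4 assays by genotype (x axis), with points for replicates 1, 2 and 3 from left to right and a bar for the mean and SD of 3 samples. Every panel spans the same number of log2 units, so the narrow spread of miR-199a-3p and the wide spread of miR-199a-5p can be compared directly, and in every panel the groups overlap.

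None of the 4 miRNAs passed a test of the genotypes. With limma, 0 of 4 had an adjusted p-value under 0.05, against 0 of the 461 miRNAs that at least 1 sample detected (0% called), and the smallest p-value that 3 samples against 3 can give in an exact permutation test is 0.1. At an unadjusted limma p-value under 0.05 there were 0 of 4, against 14 of 461 miRNAs (3.04%). Complete separation of the groups was seen for 0 of 4, against 48 of 461 (10.4%). The median log2 fold change of the 4 was 0.35, beside a median of 0.082 over all 461, and 3 of 4 estimates were above 0, as were 251 of 461. With the replicate number as a block, limma gave unadjusted p-values of 0.371 for miR-199a-3p, 0.217 for miR-199a-5p, 0.106 for miR-214 and 0.189 for miR-199b, and adjusted p-values from 0.767 to 0.787. The intervals without the block still include differences of 1 log2 unit in at least 1 direction for miR-199a-5p, miR-214 and miR-199b, but not for miR-199a-3p.

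Other miRNAs linked to mesenchyme and fibrosis were set beside them. From a list of 14, 13 were on the table and 12 were under the limit in at least 1 sample, since miR-99a was at 40 in all samples. None of the 12 had an adjusted (limma) or unadjusted p-value under 0.05, and 11 of 12 estimates were above 0, with a median log2 fold change of 0.25. Over all 461, 251 estimates were above 0 and the median was 0.082. The count of 11 includes miR-152 and miR-221, with estimates of only 0.017 and 0.0095. It also depends on the reference, since another control RNA shifts all fold changes alike. With snoRNA202 alone, the median over the 350 miRNAs under the limit in all samples moved from 0.10 to -0.058. The groups did not overlap for 2 of the 12, beside 48 of 461 (10.4%). These were miR-125b-5p with a log2 fold change of 0.46 and miR-29a, a repressor of collagen mRNAs, with 0.33. MiR-143 and miR-145, which maintain the contractile state of smooth muscle, had log2 fold changes of 0.14 and 0.25. MiR-126-3p, the main endothelial miRNA, had a log2 fold change of 0.41 without overlap of the groups (limma adjusted p = 0.923).

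**Figure D3:**
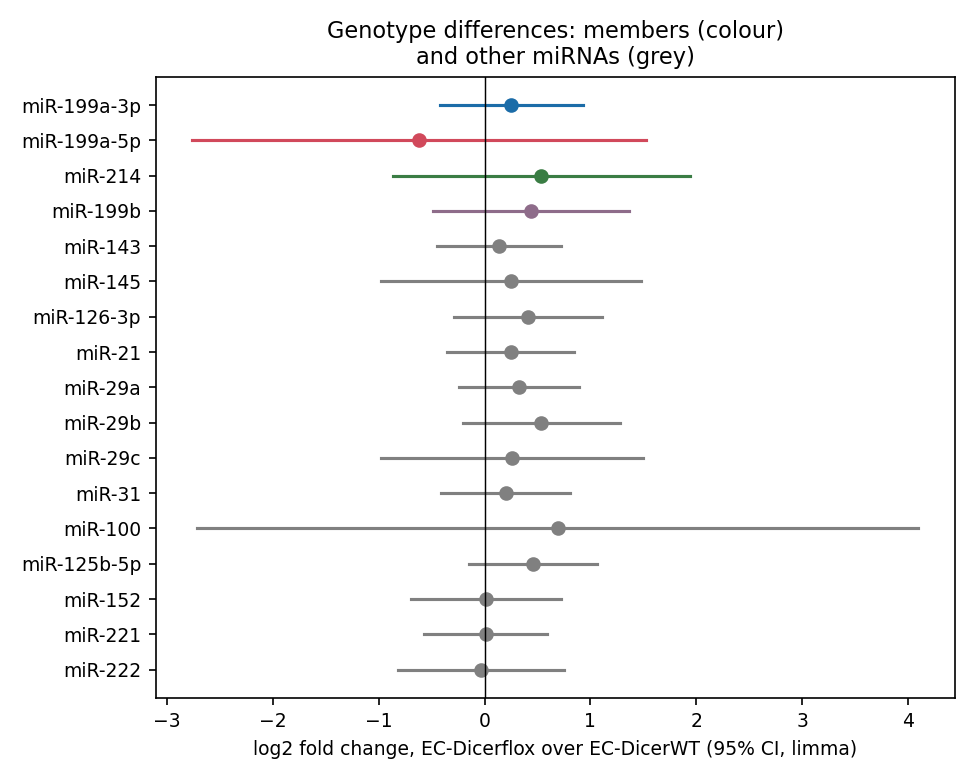
Log2 fold change of EC-Dicerflox over EC-DicerWT (x axis, with the 95% CI from limma, 3 samples per group) for the 4 members in colour and for miR-143, miR-145, miR-126-3p and other mesenchymal miRNAs in grey (y axis). All intervals include 0, and that of miR-199a-5p, from -2.76 to 1.53, is the widest of the 4 members.

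Whether the genotype difference of an assay departed from that of another was tested on the CT difference within a sample, which needs no control RNA. For the 3 pairs with miR-199b, taken to lie on the other card, this difference also holds the offset between cards. For U6 that offset was 1.42 cycles in EC-Dicerflox replicate 3 and 0.566 to 0.785 cycles in the other samples, a range of 0.851 cycles beside one of 0.910 cycles for miR-199b minus miR-214, and its part in these differences was not tested. MiR-214 minus miR-199a-3p was 0.916, 0.365 and 2.44 cycles in EC-Dicerflox and 1.29, 0.886 and 2.38 cycles in EC-DicerWT mice. The group means of 1.24 ± 1.07 (SD, n = 3) and 1.52 ± 0.774 (SD, n = 3) differed by less than the spread between samples (exact two-sided permutation p = 0.8), and the samples numbered 3 exceeded all others by more than a cycle. Without EC-Dicerflox replicate 2 or without EC-DicerWT replicate 3 the group difference of -0.280 cycles became 0.157 and 0.151 cycles. MiR-214 minus miR-199a-5p was -3.15, -3.33 and -3.82 cycles in EC-Dicerflox and -1.32, -2.72 and -2.79 cycles in EC-DicerWT mice. Here the groups did not overlap: miR-214 came earlier relative to miR-199a-5p in all 3 EC-Dicerflox samples, by 1.15 cycles on average (exact two-sided permutation p = 0.1, the lowest that 3 against 3 allows; 0.6 after adjustment over the 6 pairs of members). Of these 6 pairs, 5 were added after the values had been seen, this pair among them. The group difference of -1.15 cycles became -0.675 without EC-DicerWT replicate 1 (exact two-sided permutation p = 0.2) and -1.41 without EC-DicerWT replicate 3. The other 4 pairs had two-sided p-values from 0.4 to 1 in exact permutation tests.

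The arms of miR-199a were compared in the same way. MiR-199a-5p minus miR-199a-3p was 4.06, 3.69 and 6.26 cycles in EC-Dicerflox and 2.61, 3.61 and 5.18 cycles in EC-DicerWT mice. The 3p arm was earlier in 6 of 6 samples, but its lead varied over 3.65 cycles and was largest in both samples numbered 3. The genotypes overlapped, with 4.67 ± 1.39 and 3.80 ± 1.29 cycles (SD, n = 3 each; exact two-sided permutation p = 0.5). Their difference of 0.873 cycles was 0.0802 without EC-Dicerflox replicate 3, 0.280 without EC-DicerWT replicate 1 and 1.56 without EC-DicerWT replicate 3. For comparison, miR-126-5p minus miR-126-3p varied over 0.991 cycles and miR-142-5p minus miR-142-3p over 1.14 cycles. Over 46 hairpins with both arms under the limit in all samples, the median range was 1.64 cycles and miR-199a ranked 6th from the widest. Over the 18 hairpins whose arms were taken to be on the same card, those of miR-199a included, it ranked 3rd, with a median of 1.33 cycles. These ranks are a description of the assays and carry no test. The 3p sequence, unlike the 5p sequence, also lies in Mir199b, whose share of the 3p signal was not tested.

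**Figure D4:**
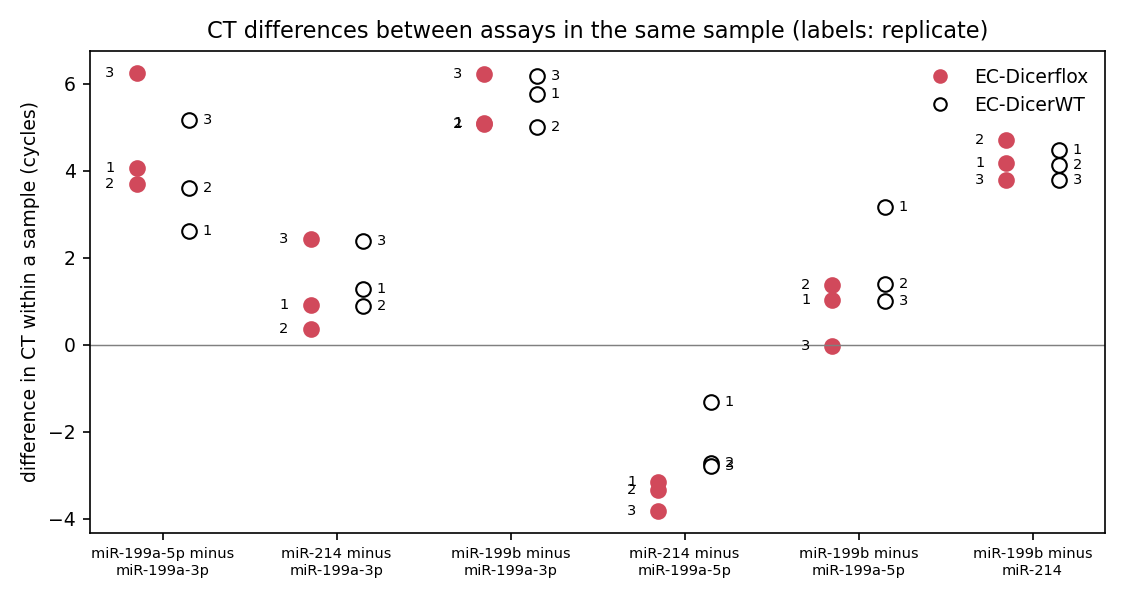
Difference in CT between 2 assays of the same sample (y axis, cycles) for the 6 pairs of members (x axis), with filled points for EC-Dicerflox, open points for EC-DicerWT and the replicate number beside each point. The difference of the miR-199a arms spreads from 2.61 to 6.26 cycles, and that of miR-199b and miR-214 from 3.79 to 4.70 cycles.

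Co-variation over the 6 samples was computed for 12 relations: the 6 pairs of members, and miR-199a-3p and miR-214 each with miR-143, miR-145 and miR-126-3p. The hairpins Mir199a-2 and Mir214 share the Dnm3os transcript, but the miR-199a-3p sequence also lies in Mir199a-1 and Mir199b. With U6 and snoRNA135 as the reference, the normalized levels of miR-199a-3p and miR-214 showed no positive relation. Pearson's r was -0.450 (exact permutation p = 0.399) and Spearman's rho was -0.486 (exact permutation p = 0.356), with adjusted p-values of 0.598 and 0.610 over the 12 relations. MiR-199a-5p, the other arm of miR-199a, had an r of 0.627 with miR-214 (exact permutation p = 0.182, adjusted 0.329). The arms of miR-199a had an r of -0.765 (exact permutation p = 0.0736, adjusted 0.233) and a rho of -0.829 (exact permutation p = 0.0583, adjusted 0.35). MiR-214 and miR-199b had the highest r, 0.900 (exact permutation p = 0.0125, adjusted 0.150), and a rho of 0.943 (exact permutation p = 0.0167, adjusted 0.200). MiR-199b had an r of -0.309 with miR-199a-3p (exact permutation p = 0.657) and of 0.320 with miR-199a-5p (exact permutation p = 0.494). No relation passed an adjusted p-value of 0.05. MiR-199a-3p had an r of 0.884 with miR-143 (exact permutation p = 0.0778, adjusted 0.233) and of 0.877 with miR-145 (exact permutation p = 0.0556, adjusted 0.233). For miR-214, r was -0.171 with miR-143 (exact permutation p = 0.743) and -0.687 with miR-145 (exact permutation p = 0.136). Spearman's rho with miR-143 was 0.257 for miR-199a-3p and for miR-214 (exact permutation p = 0.658 each). With miR-145, rho was 0.657 for miR-199a-3p (exact permutation p = 0.175) and -0.600 for miR-214 (exact permutation p = 0.242). With the endothelial miR-126-3p, r was 0.631 for miR-214 (exact permutation p = 0.192, adjusted 0.329) and 0.218 for miR-199a-3p (exact permutation p = 0.593, adjusted 0.712).

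Leaving out the 2 samples farthest from the median of the first-named assay gave an r of -0.328 for miR-199a-3p with miR-214 (EC-Dicerflox replicate 3 and EC-DicerWT replicate 2 left out), of -0.975 for the arms of miR-199a (the same samples) and of 0.771 for miR-214 with miR-199b (EC-Dicerflox replicate 2 and EC-DicerWT replicate 3). For miR-199a-3p with miR-143 it turned to -0.770 over 4 samples whose miR-199a-3p levels lay between -1.89 and -1.77, so the relation on delta CT rests on the samples left out. In raw CT that relation had an r of 0.982, and after centring each group 0.831. For miR-199a-3p with miR-145 the value was 0.822. The CT of miR-145 itself ranged over 0.265 cycles, and its r with miR-199a-3p was 0.472 in raw CT. For miR-214 with miR-143 the value was -0.949. For miR-214 with miR-126-3p it turned to -0.621, and that relation rests on the samples left out too. The signs also depended on the reference. In raw CT, where all assays carry the common shift between samples, miR-199a-3p with miR-214 had an r of 0.966. With U6 alone as the reference it was 0.681 and with snoRNA202 alone -0.851. For the arms of miR-199a, r was 0.912 in raw CT, 0.356 with U6 alone and -0.865 with the mean of all miRNAs. With this last reference, r between arms was below 0 for 18 of 46 hairpins. The median was 0.275, and the r of miR-199a was the lowest. U6 had mean CTs from 15.58 to 16.42 in the 6 samples, and snoRNA135 from 21.74 to 24.02. The relations of miR-214 with miR-199b and with miR-199a-5p kept an r above 0 with every reference tried. With miR-199b it ran from 0.602 with snoRNA135 alone (exact permutation p = 0.236) to 0.984 in raw CT, and with miR-199a-5p from 0.269 with snoRNA135 alone to 0.865 in raw CT.

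**Figure D5:**
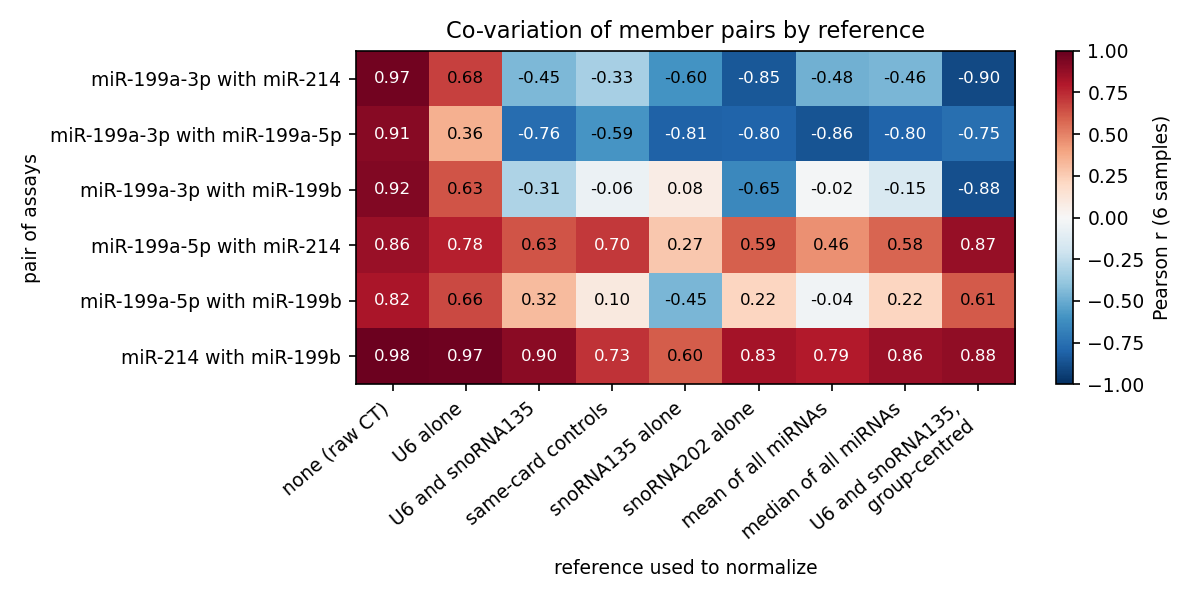
Pearson's r over the 6 samples (colour and number) for the 6 pairs of members (y axis) with each reference used to normalize the CT values (x axis). The pair of miR-199a-3p and miR-214 changes from 0.97 in raw CT to -0.45 with U6 and snoRNA135, while miR-214 with miR-199b and miR-214 with miR-199a-5p are above 0 in every column.

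The miRNAs with the most similar pattern were sought among the 350 by Pearson's r over the 6 samples, after subtraction of each sample's mean CT over these miRNAs. With 6 samples and 349 candidates for each of the 4 assays, the values are given as a description. Closest to miR-199a-3p were miR-434-5p (r = 0.993), miR-143 (0.973) and miR-145 (0.965), and miR-199a-5p ranked 334th of 349. The CTs of these neighbours rose by 0.312, 0.669 and 0.047 cycles per added cycle of the mean CT, beside 0.511 for miR-199a-3p. MiR-199a-5p rose by 2.09 cycles. Subtracting the mean CT leaves these slope differences in the values, so likeness and slope are not independent here. The CT of miR-199a-3p minus that of miR-143 lay between 3.41 and 3.78 cycles in all 6 samples, a range of 0.375 cycles, whereas miR-214 minus miR-143 ranged over 1.85 and miR-199a-5p minus miR-143 over 3.32 cycles. Closest to miR-199a-5p were miR-18a (r = 0.948), miR-486 of erythrocytes (0.937) and miR-16* (0.928). Closest to miR-214 were miR-335-3p (0.954), miR-1944 (0.937) and miR-466b-3-3p (0.936), with miR-199b 31st. Closest to miR-199b were miR-369-5p (0.960), miR-345 (0.955) and miR-101a* (0.940), with miR-214 21st. On delta CT, several of these neighbours changed rank. MiR-434-5p and miR-335-3p remained first for miR-199a-3p and miR-214, but miR-143 and miR-145 became 4th and 5th, and miR-1944 and miR-466b-3-3p became 7th and 11th, behind miR-345 and miR-872. MiR-486 was then closest to miR-199a-5p and miR-700 to miR-199b.

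The genotype difference of the 4 assays was also set against that of smooth muscle and endothelium in the same sample. In 8 comparisons of a member with miR-143 or miR-126-3p, the group difference of the CT differences ranged from -0.395 cycles (miR-214 minus miR-143) to 1.03 cycles (miR-199a-5p minus miR-126-3p), with two-sided exact permutation p-values from 0.4 to 0.8 and an adjusted p-value of 0.8 for each. MiR-214 minus miR-126-3p was 4.07 ± 0.645 cycles in EC-Dicerflox and 4.20 ± 0.613 cycles in EC-DicerWT mice (SD, n = 3 each; exact permutation test, p = 0.6). MiR-199a-3p minus miR-126-3p was 2.83 ± 0.517 and 2.68 ± 0.175 cycles (SD, n = 3 each; exact permutation test, p = 0.8), the latter group lying between 2.51 and 2.86 cycles.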

How the data were processed

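Total RNA of 6 aortas was reverse-transcribed and pre-amplified with rodent Megaplex pools and run on TaqMan MicroRNA cards, per the paper's methods. The authors deposited CT values without normalization, each being a log2-like cycle number read from the card, with 40 for wells without signal. Threshold and baseline settings are not given in the sources used here. The 6 value columns were matched to samples by name, and 0 were unused. By the form of their assay numbers, 335 and 261 miRNA assays were taken to lie on different cards, with miR-199b among the latter. The genotypes were compared on delta CT with limma 3.58.1 (lmFit, eBayes) in R 4.3.3, over 461 miRNAs that at least 1 sample detected (CT below 40), with Benjamini-Hochberg adjustment. For single values, samples were permuted exactly (20 arrangements, or 720 pairings for correlations). The number of samples, 3 per group, limits the precision.

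Samples with equal replicate numbers had positively correlated deviations from the group means (correlations of 0.150, 0.224 and 0.431 over 350 miRNAs, beside -0.353 to 0.285 for unequal numbers), which met the rule for a replicate block, although the labels do not say what a number marks. Members, lists and tests were chosen with earlier results of these data known. Named miRNAs were the members, miRNAs of the same seed, the 3 most similar to each member, fixed reference miRNAs and a list of mesenchymal miRNAs. The alternatives were other control RNAs, undetermined wells, filters, the moderation, the replicate block and leaving out samples.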

Additional observations from a re-analysis of the deposited data

How the results depend on the processing

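MiR-199a-3p, miR-214 and miR-199b kept log2 fold changes above 0 in all 21 alternatives, and miR-199a-5p kept one below 0 in 20 of 21. The exception was 0.0025 without EC-Dicerflox replicate 3. All 4 assays were under a CT of 35 in every sample, and the groups were balanced. The settings for undetermined wells, filters, moderation and the replicate block therefore left these values unchanged by construction. Only the other references and the left-out samples could change a sign. Leaving out 1 sample at a time gave 0.083 to 0.34 for miR-199a-3p, 0.17 to 0.96 for miR-214, 0.24 to 0.70 for miR-199b and -1.25 to 0.0025 for miR-199a-5p. Over the other references the values ran from 0.093 (snoRNA202 alone) to 0.34 (U6 alone) for miR-199a-3p, from 0.37 to 0.62 for miR-214, from 0.28 to 0.52 for miR-199b and from -0.78 to -0.54 for miR-199a-5p, with the same references at the ends. The replicate block gave limma p-values down to 0.106 (unadjusted, miR-214) and changed no call. Over the 350 miRNAs the median shift in log2 units moved from 0.10 to -0.058 with snoRNA202 alone. Of the 461 miRNAs, 0 to 2 passed an adjusted limma p-value of 0.05 when a sample was left out (2 without EC-Dicerflox replicate 1, 1 without EC-Dicerflox replicate 3). At an unadjusted p-value under 0.05 there were 9 with U6 alone, 24 with an ordinary linear model and 12 to 22 with a sample left out. Groups were separate for 30 miRNAs with U6 alone and for 79 to 109 with a sample left out, where smaller groups overlap less often by construction.

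When a sample was left out, the group difference of miR-214 minus miR-199a-3p ran from -0.879 cycles without EC-Dicerflox replicate 3 to 0.157 without EC-Dicerflox replicate 2. That of miR-199b minus miR-199a-3p ran from -0.569 to 0.0765, and that of miR-199b minus miR-214 from -0.143 to 0.310. The other pairs kept their direction, miR-214 minus miR-199a-5p from -1.41 to -0.675, miR-199b minus miR-199a-5p from -1.49 without EC-DicerWT replicate 3 to -0.404 without EC-DicerWT replicate 1, and miR-199a-5p minus miR-199a-3p from 0.0802 to 1.56. For miR-199a-3p with miR-214, r was 0.681 with U6 alone, 0.966 in raw CT, -0.851 with snoRNA202 alone (exact permutation p = 0.0403) and -0.904 after centring each group (exact permutation p = 0.0125). Leaving out a sample moved it between -0.625 without EC-DicerWT replicate 3 and -0.218 without EC-Dicerflox replicate 3. For the arms of miR-199a it was 0.356 with U6 alone and 0.912 in raw CT. It was -0.865 with the mean of all miRNAs (exact permutation p = 0.00278) and -0.802 with snoRNA202 alone (exact permutation p = 0.0403). Without EC-DicerWT replicates 1, 2 and 3 it was -0.844, -0.804 and -0.845 (exact permutation p = 0.025, 0.0417 and 0.108). It weakened to -0.4425 without EC-Dicerflox replicate 3 (exact permutation p = 0.425). For miR-199a-3p with miR-199b it was 0.626 with U6 alone, 0.0773 with snoRNA135 alone and 0.923 in raw CT, but -0.647 with snoRNA202 alone and -0.879 after centring each group (exact permutation p = 0.0292). For miR-199a-5p with miR-199b, r kept its sign in 12 of 14 alternatives and was -0.454 with snoRNA135 alone and -0.0351 with the mean of all miRNAs. Its size varied widely, from 0.050 without EC-DicerWT replicate 3 to 0.828 without EC-DicerWT replicate 1. The causes were not tested.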
